A study of Mus musculus with 2 samples.

Results

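Mitochondrial ribosomal proteins are the protein parts of the ribosome that translates the messenger RNAs of mitochondrial DNA. The genes described here were those named Mrpl or Mrps followed by a number, with or without a letter from a to c, in the deposited quantifications of heart RNA. There were 78 such genes among 15048 annotated genes with at least 1 read, 49 with large subunit names (Mrpl) and 29 with small subunit names (Mrps). All 78 were found in both libraries, and the GENCODE M21 annotation lists no other gene that the rule would take. The libraries were long-read cDNA libraries of heart total RNA from female B6CASTF1/J mice aged 14 days, an F1 cross of C57BL/6J and CAST/EiJ parents, each made from 2 µg of RNA with added spike-ins. They form 1 group of 2 libraries, called replicate 1 and replicate 2, with no treatment, genotype or age to compare. The labels describe the tissue of replicate 1 as from 3 females and that of replicate 2 as from a single numbered female. The library text of both speaks of 3 females, and both carry the same donor entry. Nothing used here settles whether the libraries come from separate animals, so p-values below measure the difference between these libraries alone.

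In mammals the mitochondrial ribosome makes only a handful of proteins, all of them core subunits of the respiratory chain and ATP synthase, and heart muscle depends heavily on that chain. Its proteins are all encoded in the nucleus, made in the cytosol and imported. Some descend from bacterial ribosomal proteins and others were added in the mitochondrial lineage, and a large subunit and a small subunit join on each messenger RNA. Names do not always follow place: Mrps30 and Mrps18a sit in the large subunit of the mammalian structures, and Mrps36 is known as a component of the 2-oxoglutarate dehydrogenase complex.

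Each long read was taken as 1 cDNA, so levels are reads per 1000000 counted reads (CPM) and are not divided by length. Counted reads were 858071 in replicate 1 and 926560 in replicate 2, and 1 read was worth 1.17 and 1.08 CPM. A count of 0 would have allowed up to 3 reads, or 3.5 and 3.24 CPM. Of 7 cardiomyocyte markers all were detected, led by Myh6, a cardiac myosin heavy chain, at 31270 and 30799 CPM. Of these, the ventricular light chain Myl2 (1785 and 2235 CPM) and the cardiac actin Actc1 (4974 and 5518 CPM) were called higher in replicate 2, while the globins Hba-a1 (8431 and 7375 CPM) and Hbb-bs (4369 and 3825 CPM) and the creatine kinase Ckm (10629 and 9856 CPM) were called lower (exact binomial test, the highest adjusted p of the 5 being 0.000108). No other cardiomyocyte marker was called, and of all 7, 4 were higher in replicate 2 and 3 lower. Ryr2, among those lower, had 71.1 and 46.4 CPM. Both liver markers were at 0 or 1 read. The lung airway gene Scgb1a1 had 111 reads in replicate 1 and 7 in replicate 2, and the brown fat gene Ucp1 had 53 and 107; both were called. Cidea, also of brown fat, had 87 and 129 reads and was not called, and the lung gene Sftpc had 2 and 1. Over all tested genes the squared differences between the libraries were 1.79 times what counting alone gives.

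The sequence that stands out among the members belongs to Mrpl33, a small large-subunit protein with a bacterial counterpart, and is shown first because nearly all reads of the gene depart from the annotation there. Mrpl33 (ENSMUSG00000106918.3) lies on the plus strand of mouse chromosome 5 in build GRCm38 (mm10). Its annotated coding transcript, Mrpl33-201, splices a first exon ending at base 31614022 to a 19-base coding exon at chr5:31614603-31614621 and then to the exon at chr5:31616381-31616487. The form in the reads ends its first exon 8 bases later, at base 31614030, and goes straight to the third exon. Below, capitals mark the short annotated exon, the added bases of the form in the reads, and the same bases in the genome before the next donor. All come from the M21 transcripts, 5′ to 3′.
Annotated junction: ctcttTTGCCAAGAGCAAGTCAAAaactat
Junction in the reads: gctgtctcttGTAAGTCGaactatcctg
Genome at the donors: gctgtctcttGTAAGTCGgtctgagg
Both donors begin with GT. Laid without gaps along the 19-base exon, the 8 added bases equal it at 2 places counted from its start, at 0 counted from its end, and at 6 in the best of the 12 positions, which begins at its base 10. The unannotated form had 173 of 175 usable reads in replicate 1 and 198 of 202 in replicate 2, or 98.4% ± 0.592 (SD, n = 2), while Mrpl33-201 had none. The coding part is 195 bases in Mrpl33-201. Between the same 2 ends the unannotated form has 184 bases, 11 fewer, which is not a multiple of the codon length. Read from the annotated start codon on reference bases, Mrpl33-201 has 65 codons before its stop, and the form in the reads meets a stop after 42. The reads themselves were not used here, so whether they held the letters of the 19-base exon was not tested.

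All 78 members were detected, which needed at least 3 reads in each library, and the fewest reads of any member in a library was 19. Together they held 6110 reads in replicate 1 and 7350 in replicate 2, or 7121 and 7933 CPM (7527 ± 574, SD, n = 2), which is 0.712% and 0.793% of counted reads. The median member stood at 76.9 CPM in replicate 1 and 82 in replicate 2, against 11.7 and 10.8 over all annotated genes. Of the 78, 76 were above the median of the 9985 genes detected by the same rule, which was 26.8 CPM. Among members, 62 of 78 lay within 2-fold of their median, 10 were higher and 6 lower, and the highest was 13 times the lowest. The quartiles of their mean levels were 50.5 and 123 CPM. Those of the cytoplasmic ribosomal protein genes were 55.6 and 159 CPM. Over all annotated genes, which include genes with 1 read, they were 2.24 and 40.9 CPM. The share within 2-fold was not counted for other sets. The order of members was much alike in the libraries (Spearman's rho 0.944 across 78 genes, given as a description, since genes are not independent replicates).

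**Figure D1:**
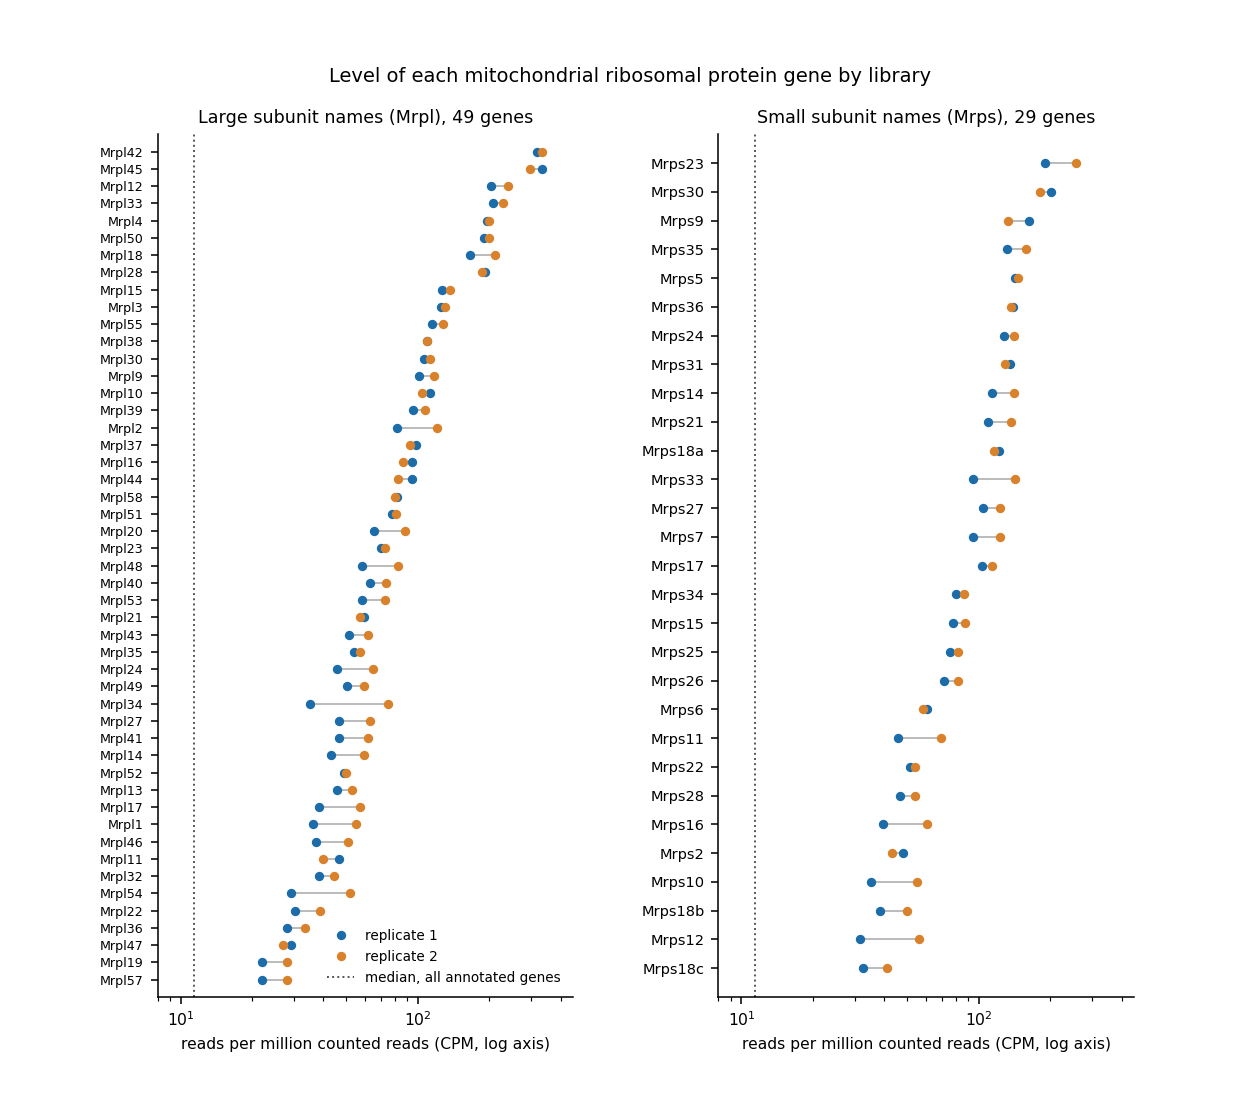
CPM of each member on a log axis in replicate 1 (blue) and replicate 2 (orange), large subunit names at the left and small subunit names at the right, with a dotted line at the median of all annotated genes. Every member lies to the right of the dotted line, Mrpl42 and Mrpl45 lead, and Mrpl19 and Mrpl57 are lowest.

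Among the large subunit genes, Mrpl42, which has no bacterial counterpart, was highest with 318 CPM in replicate 1 and 332 in replicate 2. Mrpl45, which anchors the ribosome to the inner membrane, followed with 334 and 297 CPM. The order of these 2 differed between the libraries, so they cannot be ranked, and both stood above every other member in each library. Mrpl12, the protein of the flexible stalk that recruits translation factors, had 204 and 239 CPM, and Mrpl33 had 206 and 228. Mrpl4, which lines the tunnel through which the new protein leaves, had 195 and 200 CPM. Mrpl50 had 190 and 200, Mrpl18 had 165 and 212, and Mrpl28 had 191 and 186 CPM. The ranges of Mrpl12 and Mrpl33 overlap and both lie above those of Mrpl4, Mrpl50 and Mrpl28. The wider range of Mrpl18 overlaps all 5 of these. Mrpl4 and Mrpl50 overlap as well. These ranges span 2 libraries and leave out counting error. In replicate 1 Mrpl12 had 175 reads, Mrpl33 177 and Mrpl4 167, so the order from Mrpl12 downward is not fixed.

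Among genes with small subunit names, Mrps23 had 190 and 257 CPM. Mrps30, a large subunit protein despite its name, had 200 and 181 CPM. Mrps30 led in replicate 1 and Mrps23 in replicate 2, so these 2 cannot be ranked either. Mrps9, whose bacterial counterpart reaches toward the transfer RNA in the decoding site, had 163 and 133 CPM, and Mrps35 had 132 and 159. These 4 with the 8 large subunit genes above were the 12 highest members and held 35% and 33% of member reads.

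The 6 lowest members were still well above the floor. Mrpl57 and Mrpl19 each had 19 reads in replicate 1 and 26 in replicate 2, which is 22.1 and 28.1 CPM. Mrpl47 had 29.1 and 27 CPM, Mrpl36 had 28 and 33.5, Mrpl22 had 30.3 and 38.9, and Mrps18c, one of 3 paralogous S18 genes, had 32.6 and 41. The paralogues Mrps18a, at 121 and 115 CPM, and Mrps18b, at 38.5 and 49.6, showed that the family was unevenly expressed: Mrps18a was above both others in each library. Ranges of neighbours among the 6 lowest members overlap, and Mrpl57 and Mrpl19 were equal.

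Large subunit names took 62.1% of member reads in replicate 1 (exact 95% interval of the counts 60.8 to 63.3) and 61.5% in replicate 2 (60.4 to 62.6), close to their 62.8% share of the genes. Placing Mrps30 and Mrps18a with the large subunit and leaving out Mrps36 raised the mean share from 61.8% to 67.1%. That grouping has 51 large and 26 small subunit genes, so the large subunit's share of the genes rose as well. The median gene was at 70.1 CPM for large subunit names and 108 for small ones, and at 71.1 and 83.1 CPM with the same regrouping by structure. Members were also grouped by whether their names in the mammalian ribosome mark a bacterial counterpart. The 45 so marked had a median of 59.4 CPM and summed to 3709 and 4239 CPM. The other 33, taken as mitochondria-specific, had a median of 83.4 CPM and summed to 3411 and 3693. These 33 include Mrps36, and also Mrps18a and Mrps18b, although their paralogue Mrps18c is in the first group, so the split is not strictly one of descent. These medians describe the groups and carry no test.

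Other genes of the same machinery were read from lists, with no list compared by test. Of 6 mitoribosomal proteins and partners that the name rule does not take, all 6 were detected, led by Ptcd3 with 155 and 127 CPM, Oxa1l, the insertase that receives new proteins, with 125 and 108, and Aurkaip1 with 93.2 and 100. Their median, 95.2 CPM, was near that of the members. Of 15 translation factors and RNA-handling partners 14 were found by name among genes with reads, and these 14 were detected. No gene named Mtrfr was found, and other names of it were not searched. The elongation factor Tufm had 288 and 245 CPM, the elongation factor Gfm1 had 230 and 224, and Lrpprc, which stabilises mitochondrial messenger RNA, had 212 and 203. Of 25 assembly genes 24 were detected, with a median of 30.1 CPM and the highest mean for Rbfa, at 69.9 and 86.3. Dhx30 had 67.6 and 74.5 CPM and Rcc1l 73.4 and 64.8. All 22 genes for charging mitochondrial transfer RNAs were detected, with a median of 45.9 CPM and Fars2 highest at 142 and 132. Iars2 had 122 and 101, and Gars, which also serves the cytosol, had 105 and 95. All 5 mitochondrial transcription genes were detected, with a median of 34.7 CPM. Polrmt, the polymerase, had 53.6 and 48.6 CPM, Tfb2m had 53.6 and 33.5, and Tefm had 32.6 and 36.7. The 79 cytoplasmic ribosomal protein genes summed to 10498 and 12425 CPM, with a median of 110.

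Between the libraries 1 member passed the threshold. Mrpl34 (ENSMUSG00000034880.7), a short bacterial-type protein of the large subunit, had 30 reads in replicate 1 and 69 in replicate 2, or 35 and 74.5 CPM. It was higher in replicate 2 by 1.07 on the log2 scale of CPM + 1, with an exact 95% interval of the count ratio of 0.45 to 1.76 and an adjusted p of 0.0268 (exact binomial test, Benjamini-Hochberg over 9433 genes). Over all 9433 genes 162 were called, or 1.72%, and 74, or 0.784%, were called higher in replicate 2, so 1 of 78 members is near the background. An unadjusted p under 0.05 was found in 8 of 78 members, Mrpl34 included, and in 888 of the 9433 genes (9.41%), so this count too is near the background. Among the 7 that did not pass were Mrps23 with 163 and 238 reads (adjusted p = 0.12, exact binomial test) and Mrps33 with 81 and 131 (adjusted p = 0.156, exact binomial test). No gene of the other mitochondrial lists passed.

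Most members leaned to replicate 2. The ratio was above 0 for 60 of 78 (76.9%) against 50.5% of all tested genes, with a median of 0.2 on the log2 scale against 0.00458. Cytoplasmic ribosomal protein genes leaned the same way, with 65 of 77 above 0 and a median of 0.25. Transcript length moved with the ratio. Among genes whose annotated reads averaged up to 800 bases, the median was 0.33 for 16 members and 0.24 for all 476 tested genes. From 800 to 1500 bases it was 0.16 for 31 members and 0.11 for 1371 genes, from 1500 to 3000 bases 0.18 for 16 members and -0.01 for 3524 genes, and above 3000 bases 0.11 for 15 members and -0.05 for 3778 genes. With the running median by length subtracted, 49 of 78 members stayed above 0 and the members' median was 0.13. The parts in this lean of length and of the cardiomyocyte, erythroid, lung and brown fat genes called between the libraries were not tested further. In bulk RNA, more cells rich in these transcripts and more of the transcripts per cell cannot be told apart.

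**Figure D2:**
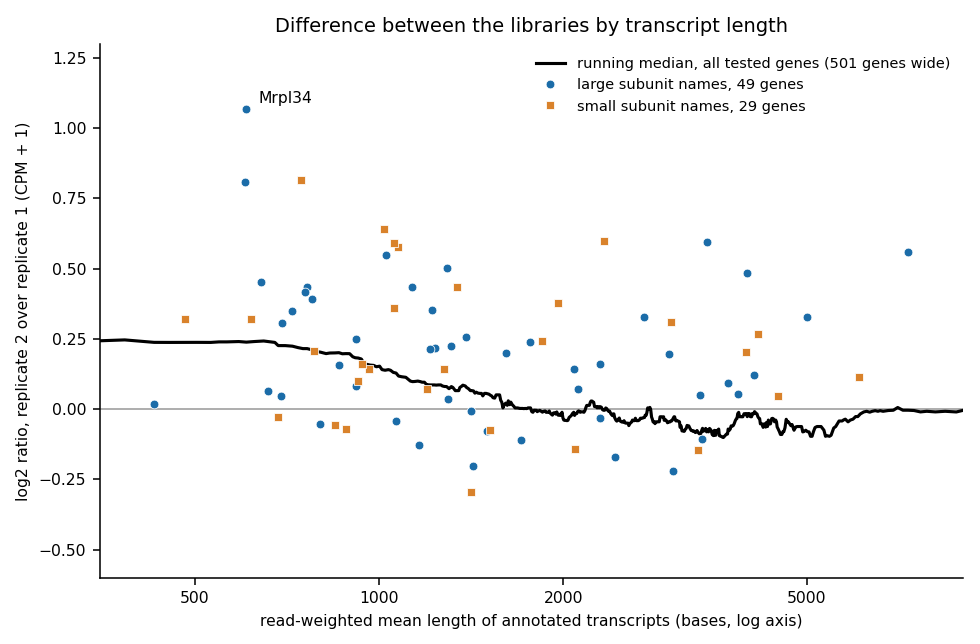
Log2 ratio of replicate 2 over replicate 1 for each member (blue circles large subunit names, orange squares small) against the read-weighted mean length of its annotated transcripts, with the running median of all tested genes as a black line. The line falls from 0.24 for genes up to 800 bases to about 0 for longer ones, most members lie above it, and Mrpl34 is highest.

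By class of transcript model, 86.6% of member reads in each library were on annotated transcripts (exact 95% intervals 85.7 to 87.4 and 85.8 to 87.4), against 78.8% ± 0.045 (SD, n = 2) over annotated genes. Incomplete models, which match part of an annotated chain of introns, had 2.29% and 2.49% of member reads against a mean of 8.94% over all annotated genes. Member transcripts were shorter, with a median length of 1293 bases against 2639 over all tested genes. The part of length in these shares was not tested. New combinations of known splice sites had 1.83% and 1.76%, against 5.6% over all annotated genes. Models with a splice site absent from the annotation had 5.03% and 4.84% against 3.44%, and Mrpl33 alone gave 173 of the 321 such reads of replicate 1 and 198 of the 372 of replicate 2. Models of the genomic class had 4.25% and 4.3% against 3.24%. Of the annotated member reads, 99.1% ± 0.0449 (SD, n = 2) were on protein-coding transcripts. Retained-intron transcripts had 31 and 41 reads and nonsense-mediated decay transcripts 2 and 2.

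Genomic-class reads are left out of the levels above, and 2 members had many. Mrpl30 had 159 and 226 of them beside 91 and 104 others, or 63.6% and 68.5% of its reads. With them counted it would rank 2 among the members in place of 26. All lay in a 1-exon model of 174 bases, chr1:37898165-37898338, inside the last exon of Mrpl30-201, which starts at the annotated end of Mrpl30-206 and stops at that of Mrpl30-207. Mrpl24 had 41 and 46 beside 39 and 60, all in a 107-base model at chr3:87923210-87923316 in the last exon of its transcripts. Other members had at most 14 such reads in a library.

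Most members were read as 1 dominant form. Usable reads were those on annotated transcripts and on unannotated ones seen at least 5 times in each library, and 76 members had at least 20 of them in each library. The leading form took all usable reads in 30 of these 76 (39.5%, against 37.1% of 4331 genes), and its median share was 98.9% against 98.3%. It fell under 90% in 13 of 76 members (17.1%), against 30.5% of all 4331 genes. The leading form was unannotated in 1 member, Mrpl33, and in 4.09% of all genes. No leading share differed between the libraries after adjustment (Fisher's exact test, 0 of 76 members, none at an unadjusted p under 0.05). In all 4331 genes 1 passed (0.0231%).

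**Figure D3:**
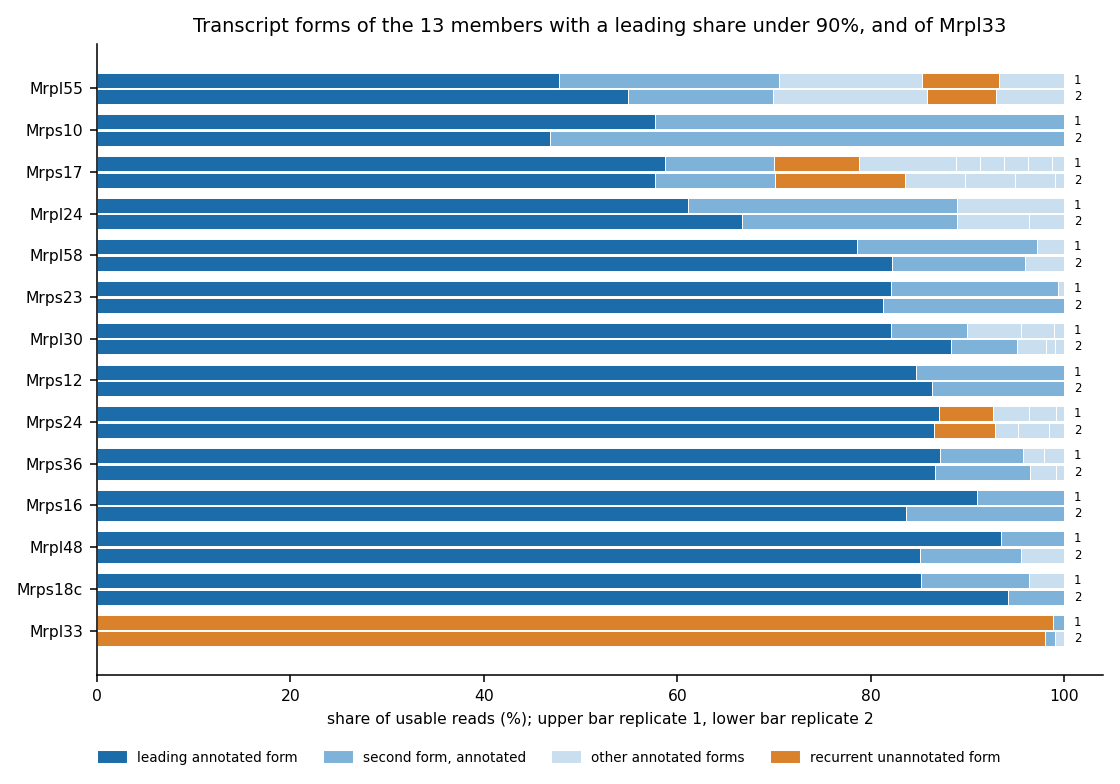
Share of usable reads (%) held by each transcript form in replicate 1 (upper bar) and replicate 2 (lower bar) for the 13 members with a leading share under 90% and for Mrpl33. Dark blue is the leading annotated form, lighter blues the other annotated ones, and orange a recurrent unannotated form, which fills nearly the whole bar in Mrpl33 and appears in Mrpl55, Mrps17 and Mrps24.

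A leading share under 90% was found in 7 members whose usable reads reached 50 per library. Mrpl55, a mitochondria-specific protein of the large subunit, was the most divided. Its leading transcript Mrpl55-201 had 42 of the 88 usable reads of replicate 1 and 62 of the 113 of replicate 2, or 51.3% ± 5.05 (SD, n = 2). Mrpl55-203 followed with 20 and 17 reads and Mrpl55-205 with 13 and 18. They differ by 2 splice acceptors, shown here with the bases of the longer exon alone in capitals, each between the end of the exon before it and the start of the shared part.
Mrpl55, 3 bases, chr11:59204172-59204174, plus strand: ctcccacgctaagCAGggcctacgtcgggg
Mrpl55, 21 bases, chr11:59204535-59204555, plus strand: ttagTGCCTGCACGTCTGTCCGTAGcctgc
The 3-base choice lies before the start codon and leaves the coding part unchanged. The longer exon was used by 42 of 62 spanning reads in replicate 1 and 62 of 79 in replicate 2. The 21-base choice lies in the coding part, which is 381 bases in Mrpl55-201 and 402 in Mrpl55-205. The longer exon had 19 of 81 and 26 of 105 spanning reads, or 24.1% ± 0.923 (SD, n = 2). Both choices put 1 form ahead in each library.

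Mrps10, whose bacterial counterpart belongs to the head of the small subunit, was split almost evenly by a 3-base acceptor choice in its coding part. With capitals for the bases of the longer exon, the junction is as follows.
Mrps10, 3 bases, chr17:47372573-47372575, plus strand: gtggcctcgcgctCAGtgccagtatgaagt
Mrps10-203, with the longer exon, had 15 of the 26 reads of replicate 1 and 22 of the 47 of replicate 2, and Mrps10-204 had the other 11 and 25. The longer form led in replicate 1 and the shorter in replicate 2, the mean was 52.3% ± 7.7 (SD, n = 2), and the difference did not pass (unadjusted p = 0.465, Fisher's exact test). The coding parts are 603 and 600 bases, 201 and 200 codons. Mrps36 held a 6-base choice of the same kind in its coding part, which is 306 bases in Mrps36-203 and 300 in Mrps36-202.
Mrps36, 6 bases, chr13:100739196-100739201, minus strand: ctaaactcagtgCCTCAGaagctttggggt
The longer exon had 85 of 93 spanning reads in replicate 1 and 101 of 112 in replicate 2, or 90.8% ± 0.862 (SD, n = 2). The added bases end in CAG in the junctions of Mrpl55 at 3 bases, Mrps10 and Mrps36, and in TAG in Mrpl55 at 21 bases. In a 29-base choice of Mrpl40, described below, they also end in CAG. All lie directly before the acceptor of the shorter exon, where introns usually end in AG, so a shared AG follows from the layout.

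The other divided members differed outside or inside their coding parts. Mrps17, a small subunit protein with a bacterial counterpart, had 10 forms in the reads with a 360-base coding part wherever it is annotated in full, and the forms differ before the start codon. Mrps17-201 had 47 of 80 and 56 of 97 usable reads, or 58.2% ± 0.72 (SD, n = 2). Mrps23-201 had 124 of 151 and 173 of 213, and Mrps23-203, with a shorter coding part of 474 bases against 531, had 26 and 40. Mrpl58, a ribosome-bound peptidyl-tRNA hydrolase also called ICT1, had 55 of 70 and 60 of 73 reads on Mrpl58-209 with 618 coding bases, and 13 and 10 on Mrpl58-202 with 531. Mrpl30-201 had 73 of 89 and 90 of 102, and Mrps24-205 had 94 of 108 and 109 of 126. Mrps36-203 had 81 of 93 and 97 of 112. In each of these 6 members the leading form was the same in both libraries.

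The remaining members with a leading share under 90% had fewer reads. Mrpl24 had 22 of 36 and 36 of 54 usable reads on Mrpl24-202, and its second form Mrpl24-201 differs by the donor of the first exon with the same 648-base coding part. Mrps12, which carries the decoding-site protein S12, had 22 of 26 and 44 of 51 on Mrps12-201, with an unchanged coding part of 417 bases in the second form. Mrps16, Mrpl48 and Mrps18c had mean leading shares of 87.3%, 89.3% and 89.7%. These 3 crossed 90% in 1 of the libraries and not in the other.

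Exon by exon, 18 internal exons in 10 members were partly included, with mean inclusion from 5 to 95% among at least 20 spanning reads in each library. They form 11 places: at 3 an exon is skipped, at 7 the exon has alternative edges and at 1 an intron is kept. None differed between the libraries (Fisher's exact test, 0 of 18 exons at an unadjusted p under 0.05), and of 1512 such exons in all genes 0 were called (0%), with 67 at an unadjusted p under 0.05. The skipped exons were an 81-base exon of Mrpl30 before the start codon, included in 73 of 80 and 90 of 97 reads, and a 58-base coding exon of Mrps18c, included in 23 of 26 and 32 of 34. The third was a 123-base exon of Mrps27, a mitochondria-specific small subunit protein, at chr13:99401270-99401392, included in 5 of 85 and 6 of 112.

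Alternative edges were also found in Mrpl40, Mrps33 and Mrps17, and a kept intron in Mrps26. Mrpl40 had a 29-base longer exon in 8 of 53 and 3 of 66 reads. Mrps33 had a donor 116 bases shorter in 5 of 77 and 6 of 122, which cuts the coding part from 318 to 102 bases. Mrps26 kept the intron between its internal exons in 2 of 58 and 10 of 73 reads. Mrps17 used the 80-base exon at chr5:129715684-129715763 in 47 of 67 and 56 of 79 reads and a 227-base version in 8 and 6. The exact 95% intervals of the libraries overlapped at all 18 exons.

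**Figure D4:**
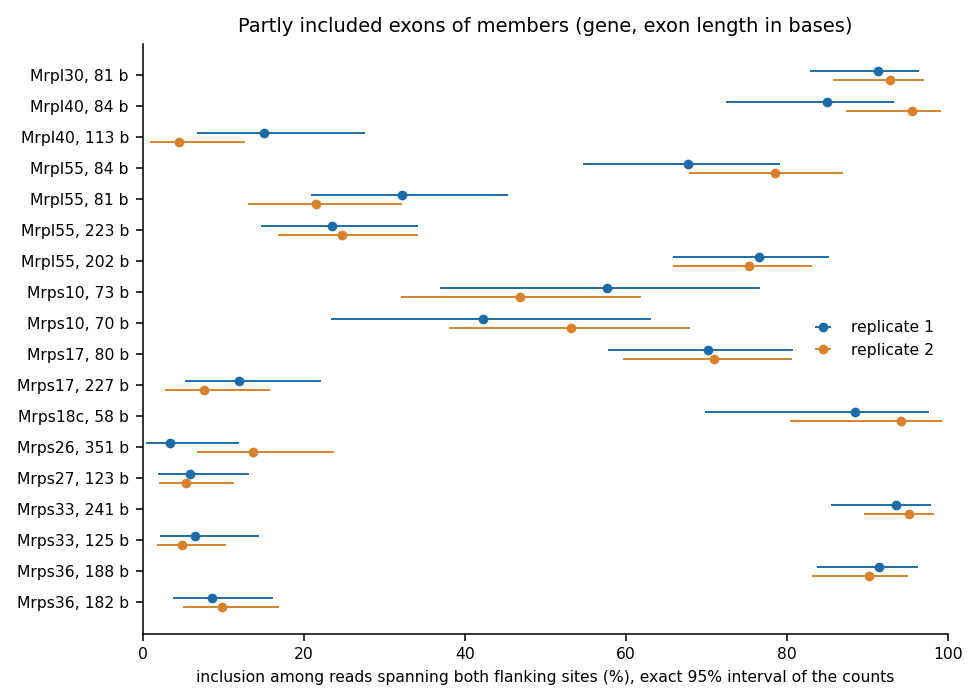
Inclusion (%) of the 18 partly included exons of members in replicate 1 (blue) and replicate 2 (orange) with exact 95% intervals of the counts, labelled by gene and exon length. Pairs of exons of a gene that mirror each other are alternative edges, the 351-base exon of Mrps26 is a kept intron with its flanking exons, and the intervals of the libraries overlap at every exon.

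Recurrent unannotated forms, of which that of Mrpl33 had the most reads, were about as frequent in members as in all genes. Replicate 1 held 169 distinct unannotated models of members and replicate 2 held 183, of which 58 had the same introns in both. At least 5 reads in each library were reached by 6 forms in 6 members (7.69% of 78, against 9.26% of 8895 genes with at least 5 reads in each library). Mrps17 had 7 and 13 reads of a form that skips the exon at chr5:129715684-129715763 with the coding part unchanged. Mrps18a had 8 and 9 reads of a form that starts at a new exon whose donor is followed by an intron from base 46124476 to 46125289 of chromosome 17, without the first 3 annotated exons and the start codon. Mrpl55 had 7 and 8 reads of a 2-exon form that leaves out both internal exons, and with them the start codon. Mrps27 had 5 and 6 reads of a 12-exon form that adds the 123-base exon to the full set. The mean share of the gene's reads ranged from 5.44% to 10.2% over these 4 forms.

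Mrps24, the mitochondrial relative of bacterial S3 at the messenger RNA entrance, had 6 and 8 reads of a form whose first intron begins 21 bases earlier than annotated. The bases between the donors are in capitals.
Mrps24, 21 bases, chr11:5707624-5707644, minus strand: cgtcgGTGCGCGGGCTAGGGCAGCGGgtga
The annotated exon ends after the capitals, and the form in the reads ends before them. Both donors begin with GT. The removed length is a multiple of 3. Its share of the gene's reads was 5.5% and 6.15%, or 5.83% ± 0.459 (SD, n = 2).

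The promoters were examined because the members share a machinery. RefSeq promoter records on GRCm38.p6, from 250 bases before to 50 after the gene start, were matched for 69 of 78 members and were searched on both strands for short motifs of known factors. CCGGAAG, an ETS motif bound by the GABPA (NRF2) class of factors, was found in 26 of 69 members (37.7%), 21.8% of 7724 detected genes and 9.93% of all 27025 genes. AAGATGG, the core of the YY1 motif, was found in 13 members (18.8%), 8.82% of detected genes and 7.28% of all. GCATGCGC, the NRF1 motif, was found in 8 members (11.6%), 6.34% and 3.05%. GGGCGG, the SP1 motif, went the other way, with 34 members (49.3%), 70.8% of detected genes and 38.2% of all. CCAAT was found in 27 members (39.1%), 43.4% of detected genes and 41.1% of all. TATAAA was found in 5 members (7.25%), 8.57% and 15.7%. The ERR motif TCAAGGTCA was in none of the members' windows and in 0.272% of those of detected genes. Members' windows were 58.7% G or C in the median, against 61% for detected genes. Members with the ETS motif had a median of 61.8 CPM and those without 90.4, given as a description. The median was also lower with than without the YY1 (57.3 and 79.2 CPM), NRF1 (74.5 and 78.9) and SP1 (70.6 and 88.2) motifs.

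**Figure D5:**
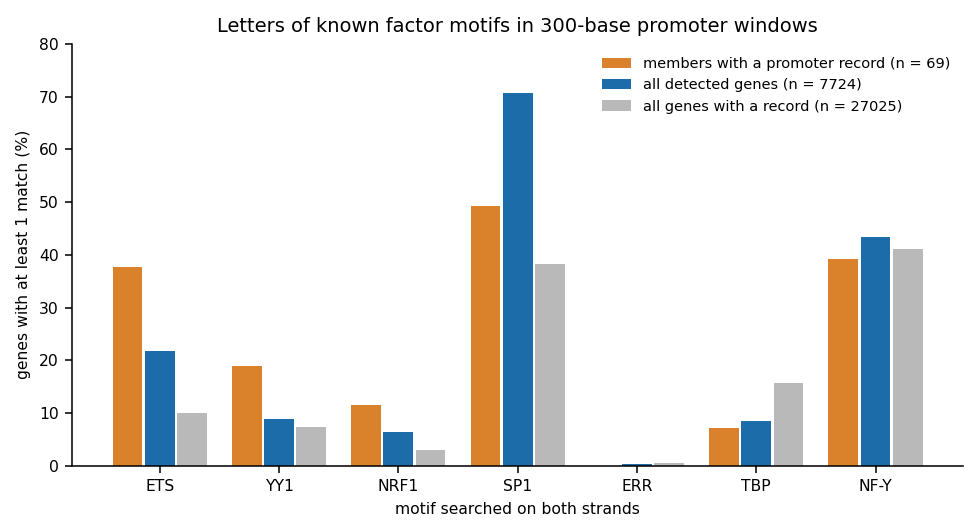
Share (%) of members (orange), of all detected genes (blue) and of all genes with a record (grey) whose 300-base promoter window holds each motif on either strand. TBP stands for the TATAAA letters and NF-Y for CCAAT. Members are highest for ETS, YY1 and NRF1 and below detected genes for SP1.

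In 8 of 69 members (11.6%) AAGATGG lay in the sense direction after the gene start, from 12 to 37 bases on, against 3.22% of detected genes and 1.54% of all. In 6 of these 8 its ATG is an annotated start codon. Start codons were looked up for members alone, so whether this is usual for genes with such a match was not tested. Other matches of members lay before the start or on the other strand. Shown are 4 of those 6, the highest by level with a full window, with the motif in capitals.
Mrps18a, chr17:46111015-46111021, plus strand: ggtgcgttccAAGATGGcggccctcag
Mrps27, chr13:99344800-99344806, plus strand: ggtgcgctccAAGATGGcggctcccat
Mrps7, chr11:115604158-115604164, plus strand: gacagcggccAAGATGGctgcccccgc
Mrpl35, chr6:71823755-71823761, minus strand: ggcaggctgcAAGATGGcggcttccat
A match describes letters and does not show that a factor binds.

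Members also often had a neighbour facing away from them. For 18 of 78 members (23.1%) another protein-coding gene starts on the opposite strand within 1000 bases upstream, against 10.6% of 9621 detected protein-coding genes. The neighbours of 13 were themselves detected. The pair Mrps11 and Mrpl46 is not in this count, because their M21 gene bounds overlap by 413 bases, but their RefSeq starts face away from each other 42 bases apart, so that 2 members share the stretch between them. Mrps11 had 45.5 and 69.1 CPM and Mrpl46 had 37.3 and 50.7. A few neighbours of the 18 counted members have a related function and are named here, picked after their values were seen. Others, such as Zfp661, Klc4, Hira and Helq, are not genes of a ribosome or of mitochondrial translation. How often such neighbours are related among all genes was not counted. Mrps12 faces Sars2, the mitochondrial seryl-tRNA synthetase, 172 bases away, with 31.5 and 56.1 CPM for Mrps12 and 19.8 and 17.3 for Sars2. Mrpl49 lies 59 bases from Fau, which encodes a cytoplasmic ribosomal protein fused to a ubiquitin-like one and had 89.7 and 109 CPM. Mrps27 lies 81 bases from Ptcd2, a mitochondrial RNA-binding protein gene with 54.8 and 63.7 CPM. Levels within pairs could be far apart: Mrpl50 had 190 and 200 CPM and its neighbour Zfp189 5.83 and 6.48. Members were spread over 17 chromosomes, with most, 11, on chromosome 11. Of 5 processed pseudogenes named after members, Mrpl23-ps1 had 31 and 29 reads and the other 4 had none, and reads of Mrpl23, at 60 and 67, could be shared with it.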

How the data were processed

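Long-read RNA sequencing of heart RNA was deposited as 1 quantification table and 1 transcript model file (GTF) per library, with models marked TALON, per the file headers. The authors deposited raw read counts per transcript model with a class for each model. Build mm10 and GENCODE M21 are given by the text deposited with each library; the sources used here do not name the aligner, filters or versions. Reads on ERCC spike-ins (12223 and 12825 of 896941 and 972159) and the genomic class were left out of levels. Models were matched between libraries by annotated identifier or by strand and introns. Tests were the two-sided exact binomial test given library totals (at least 10 reads) and Fisher's exact test for shares, with Benjamini-Hochberg adjustment over all genes or exons and a threshold of 0.05; they compare 2 libraries and cover counting error only, as do intervals. With 1 library against 1, edgeR's quasi-likelihood test has no residual degrees of freedom; edgeR 4.0.16 gave TMM factors for an alternative. Python 3.11.15 and SciPy 1.17.1 were used, and tests were checked on simulated data. The simulated data held counting error alone, so the check does not cover the further differences between these libraries. Lengths are read-weighted means of annotated transcripts. The rule named the 12 highest and 6 lowest members, those called between libraries, those with a leading share under 90% at 50 usable reads, partly included exons or recurrent unannotated forms, and the 3 highest of other lists. All other genes named were chosen after their values were seen: Mrps18b, the divided members with fewer reads, those with genomic or antisense reads, Mrpl23, promoter examples and neighbours. Members and lists were chosen with earlier results of these data known.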

Additional observations from a re-analysis of the deposited data

Results flagged for a closer look

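Reads outside the class of models used for levels exceeded 3 in each library for 2 members. Mrpl30 had 159 genomic-class reads in replicate 1 and 226 in replicate 2. Mrpl24 had 41 and 46. With them counted, Mrpl30 ranked 2 in place of 26 among the members and Mrpl24 ranked 31 in place of 52. Antisense models, on the strand opposite to a member and overlapping it, exceeded 3 reads in each library over 3 members. They had 17 and 8 reads over Mrps6, 8 and 7 over Mrpl51, and 6 and 5 over Mrpl39, beside 52 and 54, 67 and 75, and 82 and 99 sense reads.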

How the results depend on the processing

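Of 63 values recomputed under other settings, leaving aside those without 1 library, 36 stayed within 1 SD or, for counts and calls, within 1.5 times or on the same side of the threshold, 27 moved and 0 reversed. With 2 libraries, a mean without either one always lies within 1 SD, so those values say nothing about stability. Counting annotated models alone moved the summed level from 7527 to 8694 CPM, the median from 79.5 to 93.2 CPM and the large subunit share from 61.8% to 61.3%, where the totals hold fewer reads, and left 77 of 78 members detected, without Mrpl33. The share was 63% with the genomic class, 60.1% without the member with most reads and 67.1% by ribosome structure, the last chosen after seeing the data, as were joined intron chains, the length trend and a summed level without that member. The annotated share was 89.4% with members weighted equally and 90.5% without the genomic class. Members with a leading form under 90% numbered 20 with incomplete models counted and 7 with at least 50 usable reads. Partly included exons numbered 7 at 10 to 90% inclusion. Recurrent unannotated forms numbered 14 at 3 reads and 1 (Mrpl33) at 10. Of 24 values for the highest members under other classes 14 moved. Mrpl34 kept its call under other totals, minima and classes, with an adjusted p from 0.0268 to 0.0428 (exact binomial test). Leaving out replicate 1 or 2 gave 12 to 13 divided members and 17 exons. No paired analysis was possible because there is 1 group. Depth limits the lowest members to 19 reads in a library.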
